A study of Mus musculus with 30 samples.

Results

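The mouse genes of the Hoxa, Hoxb, Hoxc and Hoxd clusters and the Cdx genes were followed through differentiation of embryonic stem (ES) cells and compared between 2 genotypes. Members were all gene names in the deposited tables that consist of a Hox cluster name and a number, together with Cdx1, Cdx2 and Cdx4. This gave 42 of the 23284 genes listed, of which 11 were Hoxa, 10 Hoxb, 9 Hoxc, 9 Hoxd and 3 Cdx genes.

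RNA was sequenced from 14 libraries. The wild-type line E14Tg2a.IV (129/Ola), called E14 here, gave 2 libraries of ES cells at day 0 and 2 libraries of embryoid bodies (EBs), the aggregates in which ES cells differentiate, on each of days 1 to 4. Another 4 libraries came from EBs at day 4 on a C57BL/6J background, 2 from a Trp53-/- line carrying p63shRNA and p73shRNA, called p53 family loss here, and 2 from a Trp53+/+ line. E14 cells were kept in serum with LIF, whereas both Trp53 lines were kept in N2B27 medium with LIF and the inhibitors of 2i. The study asks how the transcription factor p53 and its relatives p63 and p73 act on the entry of ES cells into mesoderm and endoderm. The labels give neither whether a Trp53 line is 1 clone nor whether replicate libraries came from independent cultures. The p-values therefore measure the spread between these samples only.

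Hox genes encode homeodomain transcription factors that give cells their position along the head-to-tail axis. Within a cluster, genes with low paralogue numbers lie at the 3′ end and are in general switched on earlier and further forward in the embryo than genes with high numbers, a relation called colinearity. Cdx factors are homeodomain proteins of the posterior embryo that act upstream of the trunk Hox genes, and Wnt signals and retinoic acid feed into both families. In undifferentiated ES cells the clusters are a textbook target of Polycomb repression.

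The sequences just upstream of the start of Hoxb1, Hoxd9 and Cdx2 are shown because these genes had the largest log2 fold changes of day 4 over day 0 among the members of their own family that passed the test. Each runs 5′ to 3′ on the gene's strand, from upstream of the annotated start to just past it, and comes from RefSeq on the build GRCm38.p6. The window of Hoxb1 is chr11:96365508-96365807 on the plus strand, that of Hoxd9 is chr2:74697513-74697812 on the plus strand, and that of Cdx2 is chr5:147307200-147307499 on the minus strand. Capitals mark the letters TGATNNAT, the core of a joint site of Pbx and Hox proteins, which was searched on both strands together with TTTATG, a core of Cdx sites.
Hoxb1 promoter: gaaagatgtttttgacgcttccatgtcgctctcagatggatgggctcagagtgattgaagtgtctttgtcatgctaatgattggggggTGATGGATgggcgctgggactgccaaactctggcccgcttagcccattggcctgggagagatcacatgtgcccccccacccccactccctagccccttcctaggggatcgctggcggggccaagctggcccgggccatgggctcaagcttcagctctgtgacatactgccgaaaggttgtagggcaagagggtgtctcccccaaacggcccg
Hoxd9 promoter: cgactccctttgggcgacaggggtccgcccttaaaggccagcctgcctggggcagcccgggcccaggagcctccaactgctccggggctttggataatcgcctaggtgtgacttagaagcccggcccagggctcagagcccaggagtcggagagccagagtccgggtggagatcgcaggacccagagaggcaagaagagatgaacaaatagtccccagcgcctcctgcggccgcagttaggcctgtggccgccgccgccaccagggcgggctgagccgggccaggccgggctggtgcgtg
Cdx2 promoter: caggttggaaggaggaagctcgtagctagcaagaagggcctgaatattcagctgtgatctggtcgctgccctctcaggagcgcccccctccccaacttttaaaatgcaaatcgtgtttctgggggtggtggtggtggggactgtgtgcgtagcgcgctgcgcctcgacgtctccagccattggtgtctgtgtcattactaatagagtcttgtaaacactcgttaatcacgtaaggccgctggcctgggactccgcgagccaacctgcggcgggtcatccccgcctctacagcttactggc
The Hoxb1 window held 1 match to TGATNNAT, TGATGGAT at bases -162 to -155 from the start, and none to TTTATG. Neither set of letters was in the windows of Hoxd9 and Cdx2. TGATNNAT was found in 8.85% and TTTATG in 11.9% of the 32851 windows of this table. A window was on record for 24 of the 42 members, too few for a comparison of sequence over the families, so the match is a description of 1 promoter.

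Recovered reads came to 20104644 to 39835808 per E14 library and 19104692 to 31580252 per genotype library. The Trp53 transcript, which checks the genotype labels, had 866 and 802 with p53 family loss, against 8339 and 11784 in Trp53+/+ EBs, in normalised read counts. Trp73 had 48 and 52.5 with p53 family loss, against 219 and 297 in Trp53+/+ EBs, and Trp63 had 4.43 and 0 with p53 family loss, against 6.08 and 5.31 in Trp53+/+ EBs. The summed level of 7 pluripotency markers (Pou5f1, Nanog, Zfp42, Esrrb, Klf4, Sox2 and Tfcp2l1) was 23272 and 20989 in E14 EBs at day 4, against 131923 and 122382 in ES cells at day 0, and all 7 fell. That of 8 markers of nascent mesoderm (T, Mixl1, Mesp1, Kdr, Pdgfra, Hand1, Tbx6 and Msgn1) was 46753 and 49284 at day 4, against 286 and 293 at day 0, and all 8 rose. In such bulk samples a rise in the number of cells that express a gene and a rise in its RNA per cell cannot be told apart.

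Most members were detected at low levels. Of the 42, 31 had more than 10 reads in at least 1 E14 library and 16 in at least 1 genotype library. Hoxc13, Hoxd13, Cdx1 and Cdx2 passed 10 reads in every E14 library. In all 4 genotype libraries 6 did: Hoxb1, Hoxb2, Hoxb3, Hoxd1, Cdx1 and Cdx2. The 11 members that never passed 10 reads were Hoxa4, Hoxa6, Hoxa9, Hoxa11, Hoxc5, Hoxc6, Hoxc8, Hoxc9, Hoxc10, Hoxc11 and Hoxc12, so that 7 of the 9 Hoxc genes were among them. Hoxa6 had 1 read in all 14 libraries together.

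The number of members above 10 reads in both libraries of a group was 7 at day 0, 17 at day 1, 17 at day 2, 9 at day 3 and 21 at day 4. This minimum is not scaled to depth. The day 1 libraries were the deepest of E14, with 37917776 and 39835808 reads, and replicate 2 of day 3 the shallowest, with 20104644. The part of depth in these numbers was not tested. Hoxb genes accounted for much of this course, with 1, 8, 9, 3 and 6 of 10 above 10 reads on days 0, 1, 2, 3 and 4. Hoxd genes gave 1, 5, 3, 2 and 6 of 9, Hoxa genes 2, 1, 2, 1 and 4 of 11, and Hoxc genes 1, 1, 1, 1 and 2 of 9 on the same days. With p53 family loss 8 members were above 10 reads in both libraries, against 6 in Trp53+/+ EBs, and at over 5 reads the order turned, with 10 against 11. The libraries held 31580252 and 28895339 reads with p53 family loss, against 27756405 and 19104692 in Trp53+/+ EBs. The 42 members together had 27.1 and 16.2 CPM (reads scaled to library size) at day 0, 24.8 and 30.2 at day 1, 38.3 and 40.1 at day 2, 21.2 and 27.7 at day 3, and 112 and 205 at day 4. The 2 day 4 libraries were the highest of the E14 series, and the ranges of days 0, 1 and 3 overlapped.

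**Figure D1:**
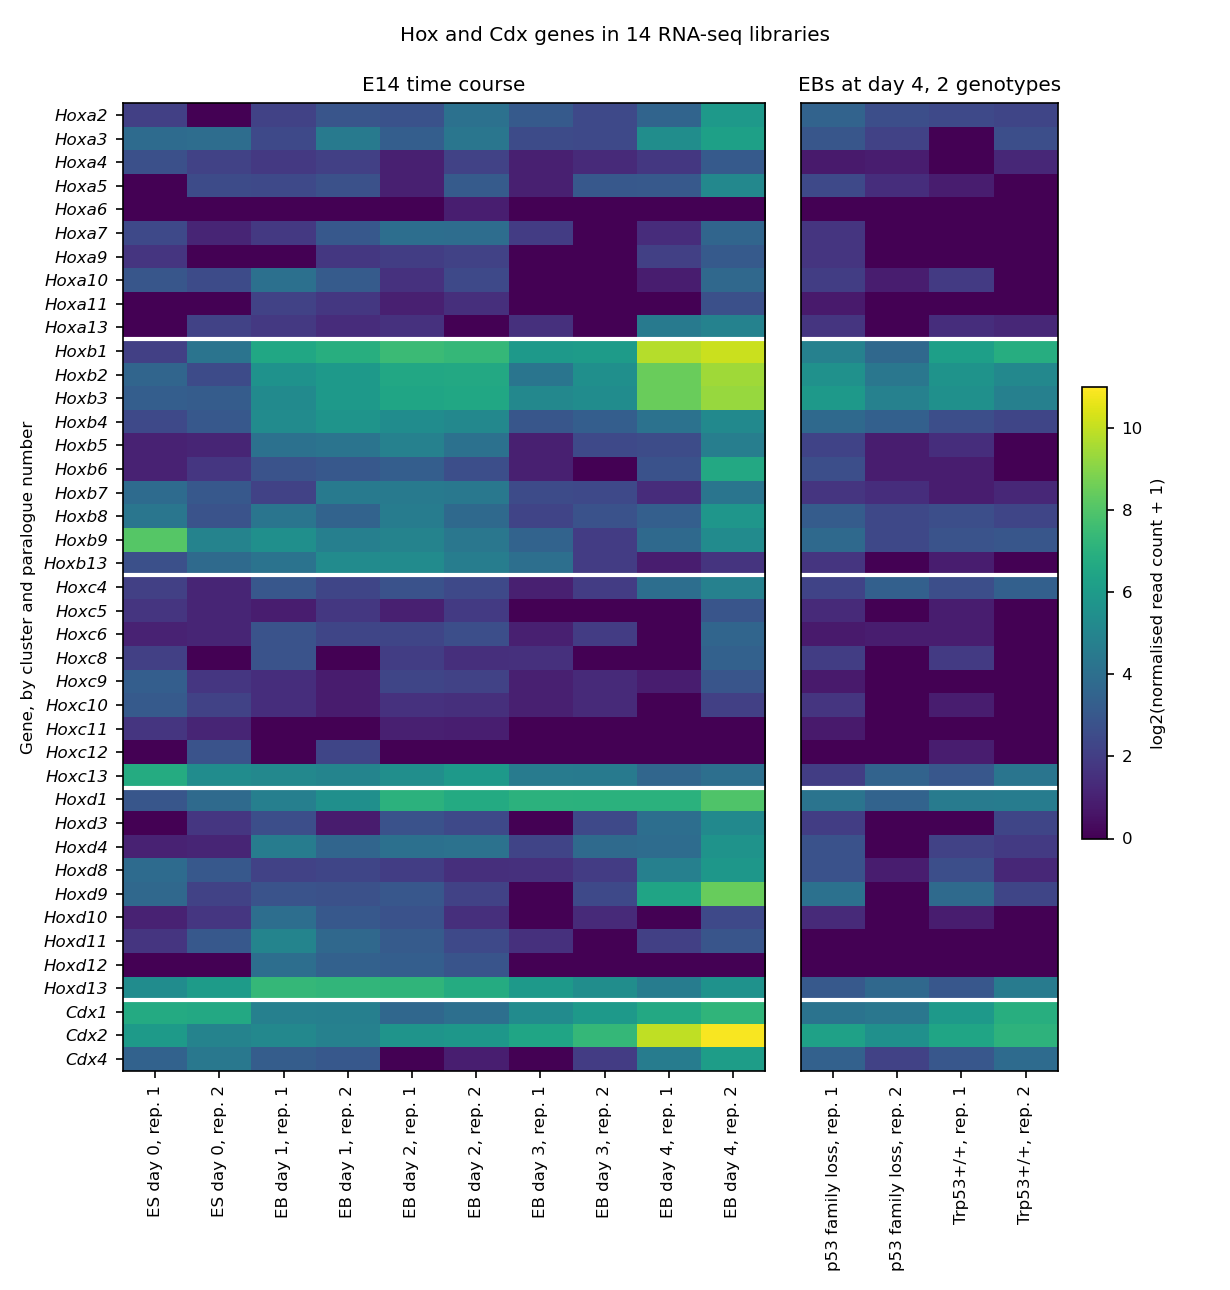
Level of the members reported here (rows, by cluster and paralogue number) in each library (columns) as log2 of the normalised read count plus 1. The 10 E14 libraries run by day on the left, and on the right the 2 libraries with p53 family loss stand left of the 2 Trp53+/+ libraries; Hoxb1, Hoxb2, Hoxb3 and Cdx2 at day 4 are the brightest cells, and most of Hoxc is dark throughout.

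The test of each comparison was limma on log2(normalised count + 1), adjusted by Benjamini-Hochberg over all genes that passed a filter on low counts, and a gene was called at an adjusted p under 0.05. The filter let 27 members through for the E14 days and 13 for the genotypes. Between day 4 and day 0, 15 of the 27 members were called, 14 higher and 1 lower, while 36% of all 15841 tested genes were called, 19.2% higher and 16.7% lower. The median log2 fold change of the 27 was 1.94, and that of all tested genes 0.01. A gene that is high on 1 day alone can pass the filter through that day, so the count describes the members that passed and not the 42. Any change over the 5 days was called for 19 of the 27, beside 38.9% of all tested genes. Fold changes on this scale understate the change of genes with few reads.

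The anterior Hoxb genes made the largest rises of all members. Hoxb1, a factor of the hindbrain and of the early posterior epiblast, had normalised read counts of 3.29 and 17.8 at day 0, 93.9 and 118 at day 1, 177 and 162 at day 2, 58.2 and 65.5 at day 3, and 886 and 1099 at day 4. Both libraries of every later day were above both of day 0, and those of day 4 were the highest of the series. The log2 fold change of day 4 over day 0 was 6.78 ± 0.57, adjusted p = 4.8e-05. Hoxb2, a hindbrain gene that Hox and Pbx factors activate in the mouse, had 11 and 4.75 at day 0, 48.2 and 61.5 at day 1, 96.9 and 97.8 at day 2, 18.1 and 43.7 at day 3, and 363 and 682 at day 4. Hoxb3, a gene of the posterior hindbrain, had 8.78 and 8.31 at day 0, 37.9 and 60.7 at day 1, 88.1 and 94.2 at day 2, 34.3 and 39.3 at day 3, and 354 and 639 at day 4. Both genes followed the course of Hoxb1, with an intermediate level on days 1 and 2, a lower one at day 3 and the highest at day 4. Their log2 fold changes of day 4 over day 0 were 5.91 ± 0.54, adjusted p = 6.8e-05 for Hoxb2 and 5.64 ± 0.41, adjusted p = 2.3e-05 for Hoxb3.

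Hoxb4 and Hoxb5, genes of the hindbrain boundary and the neck and upper trunk, rose less by day 4. Hoxb4 had 4.39 and 7.12 at day 0, 38.8 and 50.3 at day 1, 40.1 and 33.8 at day 2, 6.68 and 8.74 at day 3, and 16.5 and 35.9 at day 4. Hoxb5 had 1.10 and 1.19 at day 0, 16.4 and 17.6 at day 1, 27.4 and 16 at day 2, 0.954 and 4.37 at day 3, and 4.95 and 25 at day 4. For both genes days 1 and 2 had the highest means, and the day 4 libraries lay above those of day 0 without overlap. The log2 fold change of day 4 over day 0 was 1.94 ± 0.51, adjusted p = 0.015 for Hoxb4 and 2.54 ± 0.76, adjusted p = 0.027 for Hoxb5. Hoxb5 had 2 reads over both day 0 libraries, so its ratio of normalised reads, 11.9 (95% exact interval 3.02 to 103), is loosely bounded by counting error alone. In RefSeq on GRCm38 the span of Hoxb3 encloses Hoxb4, that of Hoxd3 encloses Hoxd4 and that of Hoxa3 encloses Hoxa4, Hoxa5 and Hoxa6. How reads in such overlaps were counted, and whether by strand, is not given in the sources used here, so the levels of these pairs may share reads.

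By limma the middle and posterior Hoxb genes did not pass the test between day 4 and day 0; DESeq2 called Hoxb9 lower, as did limma without replicate 2 of day 0, and limma without replicate 1 of day 0 called Hoxb13 lower. Without the filter, without replicate 2 of day 0 or without replicate 1 of day 4 limma called Hoxb6. Hoxb9, a thoracic gene, had 272 and 29.7 at day 0, 43.9 and 25.6 at day 1, 29.4 and 19.6 at day 2, 10.5 and 2.91 at day 3, and 12.4 and 39.1 at day 4. Replicate 1 of day 0 stood far above the other 9 libraries for this gene. Hoxb13, the most posterior Hoxb gene, known from the tail and the prostate, had 5.49 and 13.1 at day 0, 17.2 and 39.1 at day 1, 38.2 and 24 at day 2, 15.3 and 2.91 at day 3, and 0.825 and 2.17 at day 4, and was called over the 5 days (adjusted p = 0.018). Its levels were highest at days 1 and 2 and lowest at day 4. Hoxb7 ranged from 1.65 to 21.6 and Hoxb8 from 3.81 to 54.4 over the 10 E14 libraries. Hoxb6 did not pass the filter, with 5.77 and 97.8 at day 4 and at most 8.81 on any earlier day.

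**Figure D2:**
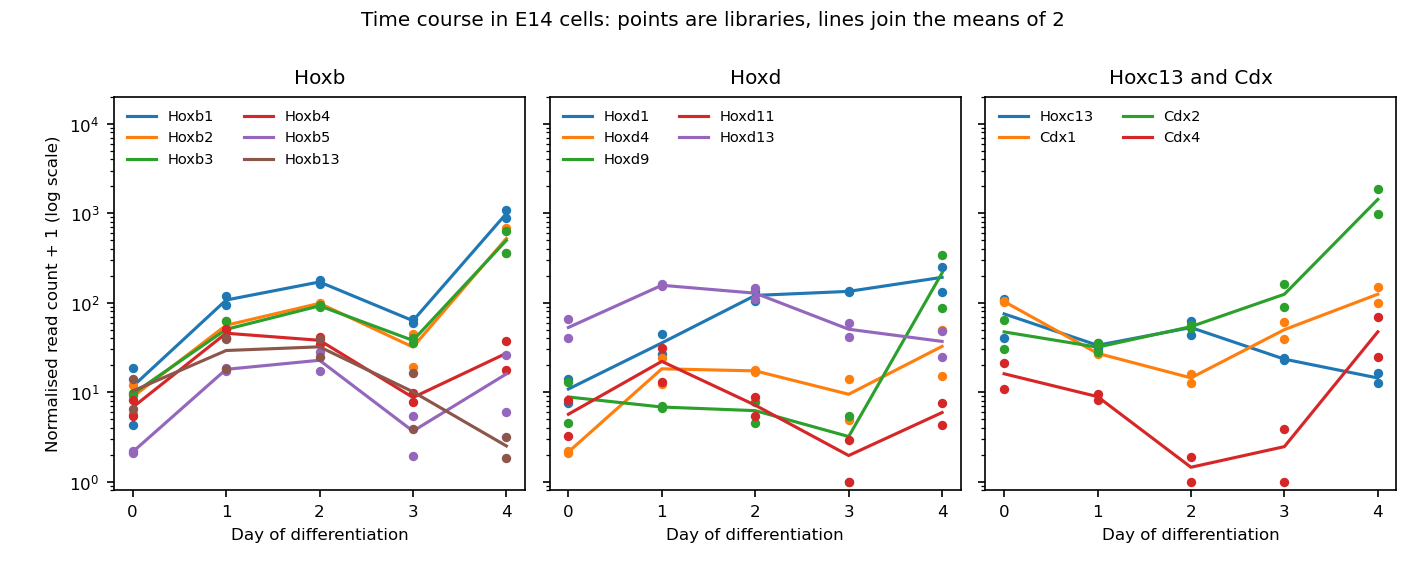
Normalised read count plus 1 (log scale) against day of differentiation for selected members in E14 cells, with 1 point per library and a line through the mean of the 2 libraries of a day. Hoxb1, Hoxb2 and Hoxb3 step up at day 1 and again at day 4, Hoxd9 and Cdx2 are highest at day 4, and Hoxb13, Hoxc13 and Hoxd13 are at their lowest mean there.

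Of the 7 Hoxd genes that passed the filter, 5 rose between day 4 and day 0. Hoxd1, the Hoxd gene at the 3′ end of its cluster, had 6.59 and 13.1 at day 0, 25.8 and 43.1 at day 1, 135 and 104 at day 2, 134 and 131 at day 3, and 131 and 251 at day 4, and a log2 fold change of 4.14 ± 0.47, adjusted p = 2e-04. Its libraries of days 2, 3 and 4 overlapped and were all above those of days 0 and 1. Hoxd9, a gene of the trunk and the proximal limb, had 12.1 and 3.56 at day 0, 6.03 and 5.59 at day 1, 6.85 and 3.56 at day 2, 0 and 4.37 at day 3, and 85.8 and 344 at day 4. It was high in the day 4 libraries alone, higher in replicate 2 than in replicate 1, and its log2 fold change over day 0 was 4.48 ± 0.92, adjusted p = 0.0049. Hoxd8, its neighbour toward the 3′ end, had 13.2 and 7.12 at day 0, 3.45 and 3.99 at day 1, 2.94 and 1.78 at day 2, 1.91 and 2.91 at day 3, and 26.4 and 55.4 at day 4, and a log2 fold change over day 0 of 1.87 ± 0.58, adjusted p = 0.031. Thus Hoxd8 was lowest on days 1 to 3, while both day 4 libraries lay above both of day 0.

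Hoxd3 and Hoxd4, genes of the neck vertebrae, rose as well, against only 2 reads each over both day 0 libraries. Hoxd3 had 0 and 2.37 at day 0, 5.17 and 0.798 at day 1, 5.87 and 4.44 at day 2, 0 and 4.37 at day 3, and 14.8 and 35.9 at day 4. Its ratio of normalised reads, day 4 over day 0, was 21 (95% exact interval 5.51 to 178), and its adjusted p was 0.015. Hoxd4 had 1.10 and 1.19 at day 0, 23.3 and 11.2 at day 1, 15.7 and 16.9 at day 2, 3.81 and 13.1 at day 3, and 14 and 48.9 at day 4, with a ratio of 25.5 (95% exact interval 6.76 to 215) and adjusted p = 0.004. The 2 libraries of day 4 were above both of day 0 for each gene. At the 5′ end of the cluster, Hoxd13, a gene of the digits and the hindgut, had 39.5 and 64.1 at day 0, 159 and 152 at day 1, 145 and 108 at day 2, 58.2 and 40.8 at day 3, and 23.9 and 47.8 at day 4, and was called over the 5 days (adjusted p = 0.012). Its high levels were those of days 1 and 2, and between day 4 and day 0 it did not pass the test, with a log2 fold change of -0.56 ± 0.44, adjusted p = 0.34. Hoxd11, a gene of the forearm and the lower trunk, had 2.20 and 7.12 at day 0, 30.2 and 12 at day 1, 7.83 and 4.44 at day 2, 1.91 and 0 at day 3, and 3.30 and 6.52 at day 4, and was called over the 5 days (adjusted p = 0.039). Hoxd10 and Hoxd12 did not pass the filter, and both had their highest mean at day 1, with at most 14.6 in any library. Without the filter limma called Hoxd12 higher at day 1 than at day 0, among 416 calls over 20077 genes. It also called Hoxd12 lower at day 3 than at day 2, among 20 calls over the same genes.

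Of the 6 Hoxa genes that passed the filter, 2 rose between day 4 and day 0. Hoxa2, which patterns the hindbrain and the arches behind the jaw, had 3.29 and 0 at day 0, 3.45 and 6.39 at day 1, 5.87 and 16 at day 2, 7.63 and 4.37 at day 3, and 10.7 and 58.7 at day 4. Hoxa13, a gene of the digits and the genital and gut openings, had 0 and 3.56 at day 0, 2.58 and 1.60 at day 1, 1.96 and 0 at day 2, 1.91 and 0 at day 3, and 21.4 and 28.3 at day 4. These 2 genes rose, with adjusted p = 0.013 for Hoxa2 and adjusted p = 0.012 for Hoxa13. From 3 reads each over the day 0 libraries, the ratio of normalised reads was 18.4 (95% exact interval 6.02 to 91.3) for Hoxa2 and 14.2 (95% exact interval 4.62 to 71.3) for Hoxa13. Hoxa3, a gene of the third pharyngeal arch and the thymus, had 13.2 and 14.2 at day 0, 4.31 and 21.6 at day 1, 8.81 and 18.7 at day 2, 4.77 and 4.37 at day 3, and 40.4 and 76.1 at day 4. By limma it missed the threshold between day 4 and day 0 (log2 fold change 1.94 ± 0.70, adjusted p = 0.054) and passed it over the 5 days (adjusted p = 0.031). Between day 4 and day 0 edgeR, DESeq2 and limma with a pseudocount of 5 called Hoxa3. Hoxa7 ranged from 0 to 14.7 and Hoxa10 from 0 to 15.5 over the 10 E14 libraries, with no call. Hoxa5, which did not pass the filter, had 7.42 and 33.7 at day 4 and at most 8.00 on the earlier days.

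The 2 Hoxc genes that passed the filter went opposite ways. Hoxc13, a gene of hair and nail, had 109 and 39.2 at day 0, 34.5 and 30.3 at day 1, 42.1 and 61.3 at day 2, 22.9 and 21.8 at day 3, and 11.5 and 15.2 at day 4, and was the member that limma called lower at day 4 than at day 0, with a log2 fold change of -2.22 ± 0.52, adjusted p = 0.0088. Both day 4 libraries lay below all others of the time course. Hoxc4, the 3′ gene of the cluster, had 3.29 and 1.19 at day 0, 6.89 and 3.99 at day 1, 5.87 and 4.44 at day 2, 0.954 and 2.91 at day 3, and 14.8 and 27.2 at day 4, and rose by a log2 fold change of 2.79 ± 0.64, adjusted p = 0.0082. Its day 0 libraries held 4 reads in all, and the ratio of normalised reads was 8.84 (95% exact interval 3.21 to 33.9).

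The 3 Cdx genes all had their highest mean at day 4, and their lowest at day 1 for Cdx2 and at day 2 for Cdx1 and Cdx4. Cdx2, a factor of trophoblast and of the posterior embryo and gut, had 62.6 and 29.7 at day 0, 34.5 and 27.1 at day 1, 50.9 and 55.1 at day 2, 87.7 and 159 at day 3, and 975 and 1879 at day 4. Both day 4 libraries were above all 8 earlier ones, and the log2 fold change over day 0 was 4.94 ± 0.48, adjusted p = 8.9e-05. Cdx1, a Wnt and retinoic acid target in the posterior embryo, had 104 and 99.7 at day 0, 26.7 and 25.6 at day 1, 11.7 and 15.1 at day 2, 38.1 and 59.7 at day 3, and 99 and 148 at day 4. It was lowest at day 2, and its log2 fold change of day 4 over day 0 was 0.24 ± 0.40, adjusted p = 0.66, while any change over the 5 days was called (adjusted p = 0.0013). Cdx4, the Cdx gene most confined to the early posterior embryo, had 9.88 and 20.2 at day 0, 8.62 and 7.19 at day 1, 0 and 0.889 at day 2, 0 and 2.91 at day 3, and 23.9 and 68.5 at day 4, and was called over the 5 days (adjusted p = 0.0043). It was at or near 0 on days 2 and 3. Since Cdx2 also marks trophoblast, the 9 trophoblast markers are given beside it. Their sum was 5689 and 2489.7 at day 0, 719 and 935 at day 3, and 1618 and 1768 at day 4. Between day 4 and day 0, 2 of the 6 tested rose and 2 fell. Between day 4 and day 3, 5 of the 6 had positive log2 fold changes and 1 was called, higher. The part of the trophoblast markers in the level of Cdx2 was not tested.

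Of the 15 calls between day 4 and day 0, those of Hoxb1, Hoxb2, Hoxb3, Hoxd1, Hoxd4 and Cdx2 held under each of 10 alternative settings. Without replicate 2 of day 4 only the calls of these genes and of Hoxc13 stayed. Calls over all genes also fell without replicate 1 or without replicate 2 of day 4. How far the losses there were particular to the members was not tested. Without replicate 1 of day 4 Hoxa13, Hoxc13 and Hoxd8 were lost. Without replicate 1 of day 0 Hoxa13, Hoxb5 and Hoxd3 were lost, and without replicate 2 of day 0 Hoxd8, which DESeq2 did not call either. Of the 19 calls over the 5 days, 11 held under each of 16 settings. The call of Hoxc13 held in the fewest, 7 of 16, and was lost without the filter too. Those of Hoxa13, Hoxb5, Hoxc4 and Hoxd9 were each lost in at least 1 fit without 1 library. The calls of Hoxa3, Hoxb13 and Hoxd11 were lost without either library of day 4. Hoxa3 was also lost without either library of day 3, and Hoxb13 without replicate 1 of day 2. Hoxd11 was also lost without either library of day 1 or day 2, without replicate 2 of day 3 and with a replicate block.

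At the first step, day 1 over day 0, limma called 5 of the 27 members, 4 higher and 1 lower, beside 3.3% of all tested genes, 1.75% higher and 1.55% lower. The 4 that rose were the neighbours Hoxb1 to Hoxb4, with log2 fold changes of 3.57 ± 0.57 for Hoxb1, 2.74 ± 0.54 for Hoxb2, 2.36 ± 0.41 for Hoxb3 and 2.77 ± 0.51 for Hoxb4. Their adjusted p ran from 0.012 to 0.026, and both day 1 libraries were above both of day 0 for each. Cdx1 fell, with a log2 fold change of -1.92 ± 0.40, adjusted p = 0.033. Hoxb5 at 3.07 ± 0.76, adjusted p = 0.06, Hoxd4 at 3.00 ± 0.72, adjusted p = 0.054, Hoxd1 at 1.74 ± 0.47, adjusted p = 0.079 and Hoxd13 at 1.61 ± 0.44, adjusted p = 0.081 had positive log2 fold changes that missed the threshold. DESeq2 called 8 members, the same 5 and Hoxd1, Hoxd4 and Hoxd13, among 1450 calls over all 15841 tested genes. The number of calls turned on single libraries: it was 0 without replicate 2 of day 1, 1 (Hoxb3) without replicate 1 of day 1, and 13 without replicate 2 of day 0. The calls over all genes moved too, to 67 of 16283, 227 of 16237 and 5176 of 16294 in the same fits, against 523 of 15841 with all libraries. Without replicate 1 of day 0, or without the filter, the call of Cdx1 was lost.

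**Figure D3:**
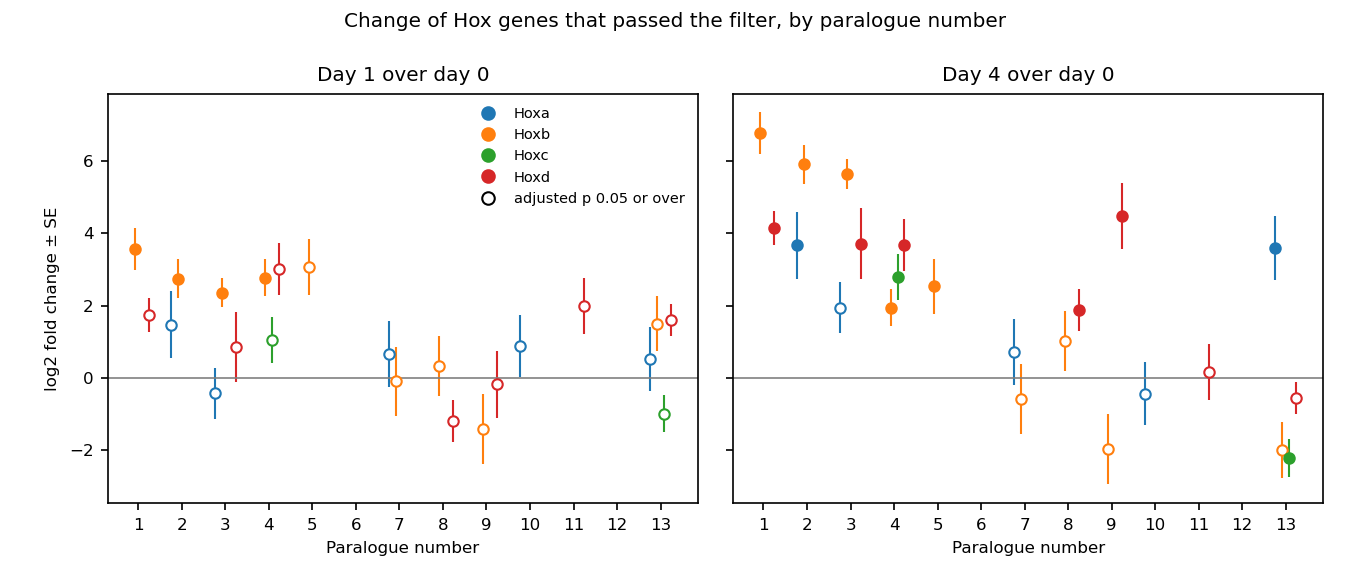
log2 fold change ± SE of Hox genes that passed the filter, against paralogue number and coloured by cluster, for day 1 over day 0 (left) and day 4 over day 0 (right). Filled points passed an adjusted p of 0.05; the largest values at day 4 are those of Hoxb1, Hoxb2 and Hoxb3, and at number 13 Hoxa13 stands above 0 and Hoxc13 below it.

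No member was called between day 2 and day 1 or between day 3 and day 2 by limma, beside 0.593% and 0.133% of all tested genes. For day 2 over day 1, 3 members had an unadjusted p under 0.05 (Hoxd1 higher, Cdx1 and Cdx4 lower), edgeR called 0 and DESeq2 called 1, Hoxd1. DESeq2 called 1290 of all 15841 tested genes at that step. For day 3 over day 2, 13 members had an unadjusted p under 0.05, 2 higher and 11 lower, edgeR called 0 and DESeq2 called 3, Cdx1 higher and Hoxb1 and Hoxb2 lower. DESeq2 called 315 of the 15841 genes between these days. At that step 22 of the 27 log2 fold changes were negative, with a median of -1.35 beside -0.01 for all tested genes. Hoxb4, at -2.13 ± 0.51, adjusted p = 0.19, and Hoxb5, at -2.76 ± 0.76, adjusted p = 0.26, were among the most negative. The 3 Cdx genes were positive, with 1.77 ± 0.40, adjusted p = 0.18 for Cdx1.

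The last step, day 4 over day 3, called 10 of the 27 members, all higher, beside 2.93% of all tested genes, 2.31% higher and 0.619% lower. The median log2 fold change of the 27 was 1.96, and that of all tested genes 0.00. The 10 came from every cluster and from Cdx: Hoxa3, Hoxa13, Hoxb1, Hoxb2, Hoxb3, Hoxc4, Hoxd8, Hoxd9, Cdx2 and Cdx4. The log2 fold change was 3.66 ± 0.41, adjusted p = 0.002 for Hoxb3, 4.09 ± 0.54, adjusted p = 0.0042 for Hoxb2 and 3.51 ± 0.48, adjusted p = 0.0045 for Cdx2. From 3 reads over the day 3 libraries, Hoxd9 rose by a ratio of normalised reads of 114 (95% exact interval 38.7 to 555). Cdx4, with 2 reads at day 3, rose by 37.4 (95% exact interval 10.1 to 314), and Hoxd8, with 4 reads, by 16.9 (95% exact interval 6.35 to 63.4). Each fit without 1 library of day 3 or day 4 lost some of these calls, and the fit without replicate 2 of day 4 lost all. Calls over all genes fell in each of these fits too. How far the losses were particular to the members was not tested. Hoxa13 was also lost under edgeR and DESeq2, and Hoxc4 under DESeq2.

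The 2 day 4 libraries of E14 cells differed in one direction for the members. All 27 that passed the filter were higher in replicate 2 than in replicate 1, with a median log2 difference of 1.04, while 52.4% of all tested genes were higher in replicate 2, with a median of 0.01. On the other days 11 to 15 of the 27 were higher in replicate 2. Of the marker lists, the sum of 11 fibroblast genes was 1717 in replicate 1 and 3613 in replicate 2, and that of 7 neural genes was 289 and 681. The sum of 8 mesoderm genes was 46753 and 49284, and its genes did not move together. Hand1, a factor of lateral and extraembryonic mesoderm, had 2145 and 9272, whereas T had 21465 and 16448. Of the mesoderm genes none was at 0 in either library, of the fibroblast genes 1 and 2 were, and of the neural genes 0 and 1. The part of these markers in the difference was not tested.

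Low paralogue numbers took a larger share of the Hox reads on the later days; no test was made of these shares. Genes of paralogue numbers 1 to 3 (8 genes) took 26.3% and 38.9% of all reads on the 39 Hox genes at day 0, 34.7% and 50.04% at day 1, 57.5% and 65.1% at day 2, 71.1% and 77.7% at day 3 and 87.5% and 76% at day 4. Both libraries of days 2, 3 and 4 were above both of days 0 and 1. Genes of numbers 9 to 13 took 63.8% and 48.9% at day 0, 46.6% and 33.5% at day 1, 27% and 21.8% at day 2, 22.6% and 13.1% at day 3 and 7.62% and 13% at day 4. The exact 95% binomial interval of the share of numbers 1 to 3, which covers counting error only, was 23.0% to 29.8% in replicate 1 and 33.5% to 44.6% in replicate 2 of day 0. These are shares of reads, so a long transcript counts for more than a short one and no level is compared between genes. At day 0, Hoxb9, Hoxc13 and Hoxd13 had 248, 99 and 36 of the 427 reads of numbers 9 to 13 in replicate 1, and 25, 33 and 54 of 152 in replicate 2.

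**Figure D4:**
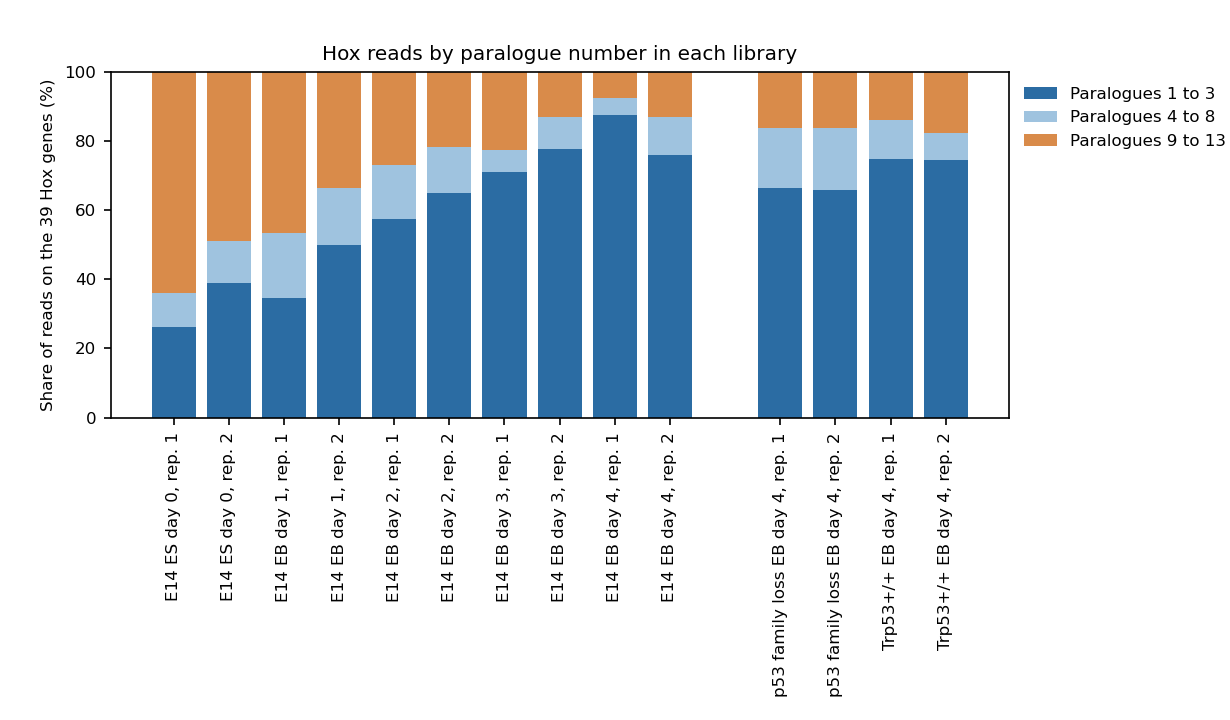
Share of the reads on the 39 Hox genes (%) taken by paralogue numbers 1 to 3, 4 to 8 and 9 to 13, with 1 stacked bar per library. E14 libraries run from day 0 to day 4 on the left, and the 2 libraries with p53 family loss stand left of the 2 Trp53+/+ libraries on the right; numbers 1 to 3 had 26.3% and 38.9% at day 0 and 87.5% and 76.0% at day 4.

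Between p53 family loss and Trp53+/+ EBs at day 4 no member was called by limma, of 13 that passed the filter, beside 1.24% of all 14840 tested genes, 0.566% higher and 0.674% lower. At an unadjusted p under 0.05 there were 3, with Cdx1 and Hoxb1 lower. edgeR called 0 and DESeq2 called 2, Cdx1 and Hoxb1, beside 184 and 664 of all 14840 tested genes. The median log2 fold change of the 13 was -0.63, and 3 of them had positive values, Hoxb3 and Hoxb4 among these. Together the 42 members had 19 and 9.62 CPM with p53 family loss, against 18.6 and 22.7 in Trp53+/+ EBs, so that the groups overlapped.

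Cdx1 and Hoxb1 showed the largest differences between the genotypes. Cdx1 had normalised read counts of 17 and 19.8 with p53 family loss, against 60.8 and 119 in Trp53+/+ EBs, a log2 fold change of -2.16 ± 0.43, adjusted p = 0.089. Hoxb1 had 27.3 and 12 with p53 family loss, against 73.8 and 115 in Trp53+/+ EBs, a log2 fold change of -2.28 ± 0.49, adjusted p = 0.11. The groups did not overlap for either gene, and DESeq2 gave an adjusted p of 0.0028 for Cdx1 and 0.004 for Hoxb1. Over the alternatives the adjusted p ran from 4.3e-05 to 0.094 for Cdx1 and from 6.6e-05 to 0.18 for Hoxb1. Without replicate 1 of Trp53+/+ 4 members were called, Cdx1, Cdx2 and Hoxb1 among them, beside 1613 of all 15262 tested genes, and without replicate 2 of Trp53+/+ or replicate 1 of p53 family loss 1 was, Hoxb1, beside 1113 of 15343 and 208 of 15175 genes. Cdx2 had 76.9 and 44.7 with p53 family loss, against 88.6 and 139 in Trp53+/+ EBs, and a log2 fold change of -0.91 ± 0.39, adjusted p = 0.38. The 2 groups did not overlap for Cdx2 either, which in 2 libraries each is a description.

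The other anterior Hoxb genes had smaller differences, none of them called. Hoxb2 had 46.6 and 19.8 with p53 family loss, against 48.7 and 34.5 in Trp53+/+ EBs. Hoxb3 had 58.4 and 27.5 with p53 family loss, against 45.2 and 26.5 in Trp53+/+ EBs. For both genes the 2 genotypes overlapped, with log2 fold changes of -0.42 ± 0.50 for Hoxb2 and 0.21 ± 0.49 for Hoxb3. Hoxb4 had 12.6 and 9.46 with p53 family loss, against 5.21 and 3.98 in Trp53+/+ EBs, higher in both libraries with p53 family loss, at 1.10 ± 0.52, adjusted p = 0.44. Hoxd1 had 17.7 and 10.3 with p53 family loss, against 22.6 and 23.9 in Trp53+/+ EBs, lower in both, at -0.73 ± 0.45, adjusted p = 0.57. Hoxd9 had 16.3 and 0 with p53 family loss, against 13 and 3.98 in Trp53+/+ EBs. Hoxc13 had 2.96 and 10.3 with p53 family loss, against 6.95 and 18.6 in Trp53+/+ EBs. The groups overlapped for Hoxd9 and Hoxc13, as they did for Hoxd13, Hoxc4 and Cdx4, whose adjusted p lay between 0.77 and 0.94. The 29 members that did not pass the filter had at most 17 reads in any genotype library, and 3 of them (Hoxa2, Hoxb8 and Hoxb9) passed 10 reads, each in replicate 1 of p53 family loss alone. Hoxa6, Hoxd11 and Hoxd12 had none in any of the 4 libraries, where a count of 0 allows up to 3 reads per library.

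**Figure D5:**
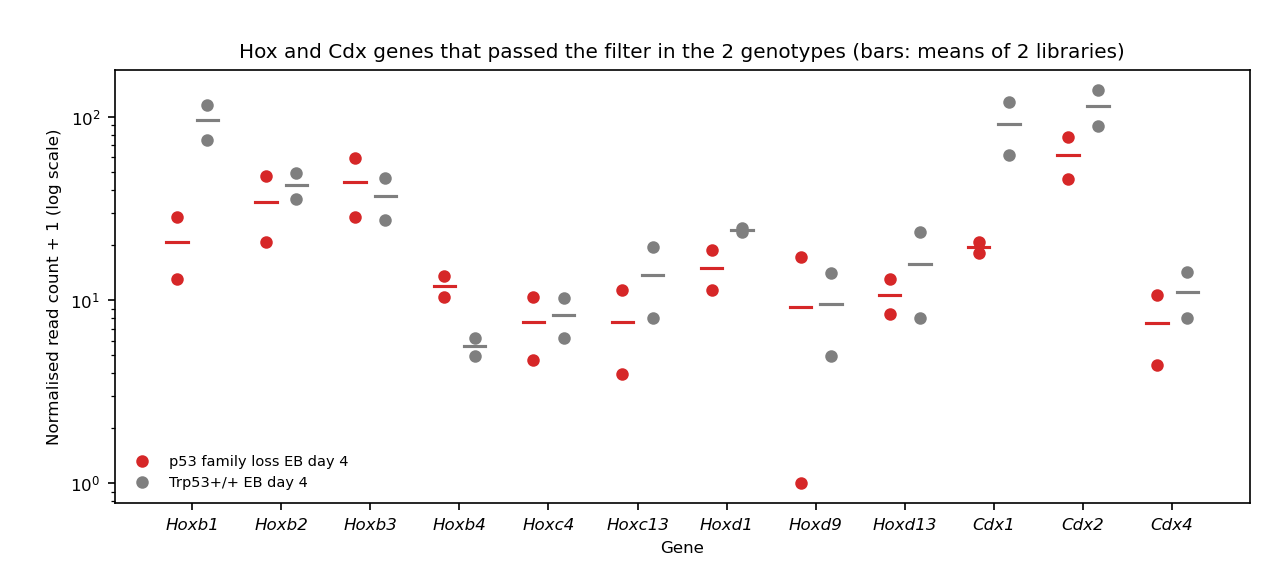
Normalised read count plus 1 (log scale) of members that passed the filter in EBs at day 4, with p53 family loss (red) left of Trp53+/+ (grey), 1 point per library and a bar at the mean of 2 libraries. Hoxb1, Cdx1 and Cdx2 are lower with p53 family loss without overlap of the points, and none passed an adjusted p of 0.05.

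The cell type markers of these EBs also moved with the genotype. The summed level of the 8 mesoderm markers was 4022 and 2804 with p53 family loss, against 19570.5 and 17426 in Trp53+/+ EBs, and 3 of 8 fell by limma. None of the 8 had a positive log2 fold change, 6 had an unadjusted p under 0.05, edgeR called 3 and DESeq2 called 6. The summed level of 7 neural markers was 5178 and 5205 with p53 family loss, against 1279 and 1591 in Trp53+/+ EBs, and 3 of 6 tested rose by limma, among them Sox1 (4.57 ± 0.19, adjusted p = 0.001) and Pax6 (4.72 ± 0.27, adjusted p = 0.0017). Of the 6 neural markers tested, 5 had positive log2 fold changes, and not all went the same way. All 6 had an unadjusted p under 0.05, edgeR called 3 and DESeq2 called 6. That of 6 definitive endoderm markers was 1806 and 2519 with p53 family loss, against 8750.1 and 5528 in Trp53+/+ EBs, and 2 of 6 fell by limma and 5 were called by DESeq2. That of 8 extraembryonic endoderm markers was 10379.5 and 10063 with p53 family loss, against 7253 and 5707 in Trp53+/+ EBs, with none of 7 called by limma, 3 at an unadjusted p under 0.05, 0 called by edgeR and 1 by DESeq2. That of 11 fibroblast markers was 2956 and 2433 with p53 family loss, against 1487 and 1321 in Trp53+/+ EBs, with 1 of 9 tested called and 0 and 2 markers at 0 against 0 and 3. None of the 8 mesoderm, 6 definitive endoderm and 7 neural markers was at 0 in any of the 4 libraries, and their part in the values of Cdx1 and Hoxb1 was not tested. The 2 wild-type EB groups at day 4 also differed in level. The 42 members had 112 and 205 CPM in E14 EBs and 18.6 and 22.7 CPM in Trp53+/+ EBs, and Cdx2 had 33.6 and 62.9 CPM in E14 EBs and 3.67 and 5.50 CPM in Trp53+/+ EBs. Line, strain and medium differ between them and their tables were normalised separately, so no test was made.

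Genes that work with or beside the Hox and Cdx genes were counted over lists chosen with earlier results of these data known, and each count of day 4 over day 0 stands beside the 36% of all tested genes called there. Of 9 TALE cofactors, the Pbx, Meis and Pknox proteins that bind DNA together with Hox factors, 6 rose and 1 fell between day 4 and day 0, with a median log2 fold change of 2.33. Meis3 had 809 and 925 at day 4, against 93.3 and 114 at day 0 (log2 fold change 3.06 ± 0.32, adjusted p = 0.00013). Pbx3 at 2.33 ± 0.27 and Meis2 at 2.93 ± 0.43 rose as well, whereas Pknox1 fell (-0.95 ± 0.17). Between the genotypes limma called none of the 9 (2 at an unadjusted p under 0.05, 0 by edgeR and 0 by DESeq2).

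Of 12 signals and factors of the posterior axis, 9 rose and 1 fell between day 4 and day 0, with a median log2 fold change of 3.96. T, the Brachyury factor of the primitive streak, reached 7.96 ± 0.40, adjusted p = 4.9e-06, Tbx6, which directs paraxial mesoderm, 4.78 ± 0.44, adjusted p = 7.4e-05, and Wnt8a, a Wnt ligand of the streak, 4.16 ± 0.39, adjusted p = 7.9e-05. T, Tbx6 and Msgn1 are also on the mesoderm list. With p53 family loss 3 of the 12 fell and 1 rose relative to Trp53+/+ (4 calls by edgeR and 8 by DESeq2). T had 1554 and 1100.1 with p53 family loss, against 10292 and 9092 in Trp53+/+ EBs (-2.89 ± 0.20, adjusted p = 0.0044). Wnt3a, the Wnt ligand of the tail bud that sustains Cdx genes in the mouse, had 10.3 and 12.9 with p53 family loss, against 82.5 and 135 in Trp53+/+ EBs (-3.09 ± 0.40, adjusted p = 0.027). Fgf8 at -1.45 ± 0.15, adjusted p = 0.016 also fell, and Gbx2, a factor of the forward hindbrain, rose (2.55 ± 0.22, adjusted p = 0.01). For T, Wnt3a and Fgf8 both libraries with p53 family loss lay below both Trp53+/+ libraries.

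In the retinoic acid pathway 4 of 13 tested genes rose and 1 fell between day 4 and day 0, a share near the 36% of all tested genes, with a median of 0.53. The rises included the retinoic acid degrading enzymes Cyp26a1 (7.11 ± 0.41, adjusted p = 7.9e-06), Cyp26c1 (adjusted p = 0.00011) and Cyp26b1 (2.71 ± 0.76, adjusted p = 0.02), and Dhrs3, a retinaldehyde reductase (1.81 ± 0.45, adjusted p = 0.012). Cyp26c1 had 5 reads over the day 0 libraries, and its ratio of normalised reads was 60.02 (95% exact interval 25.5 to 186). Cyp26a1 fell with p53 family loss, with 613 and 587 with p53 family loss, against 3220.5 and 3349 in Trp53+/+ EBs (-2.45 ± 0.15, adjusted p = 0.0027), and was the only one of 12 tested genes of the pathway called there (2 by DESeq2). Cyp26a1 and Cdx1 thus were both lower in each of the libraries with p53 family loss than in each Trp53+/+ library.

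Evx1, the homeobox gene beyond the 5′ end of the Hoxa cluster and a factor of the primitive streak, had 4267 and 4806 at day 4, against 69.1 and 34.4 at day 0 (6.51 ± 0.56, adjusted p = 5e-05). With the genotypes it had 325 and 311 with p53 family loss, against 1887 and 1686 in Trp53+/+ EBs (-2.49 ± 0.17, adjusted p = 0.0042). Gsx1, a ParaHox gene of the neural tube, had no read at day 4, against 28.5 and 58.2 at day 0, at least 15.1-fold lower against a floor of 3 reads per library (adjusted p = 9.2e-05). It had 31 and 46.4 with p53 family loss, against 1.74 and 2.65 in Trp53+/+ EBs (adjusted p = 0.035), and from 4 reads in the Trp53+/+ libraries the ratio was 18.2 (95% exact interval 6.87 to 68). Evx1 therefore fell and Gsx1 rose with p53 family loss, each without overlap of the groups. Of the other listed homeobox genes Gsx2, Pdx1 and Evx2 none passed the filter.

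Genes that flank the clusters were counted as well. Of 24 neighbours 1 rose and 4 fell between day 4 and day 0, with a median log2 fold change of -0.10. Skap2, an adaptor protein beside the Hoxa cluster, fell (-1.60 ± 0.18, adjusted p = 0.00019), as did Calcoco2 (-4.13 ± 0.55, adjusted p = 5e-04), and Calcoco1, next to Hoxc13, rose (0.64 ± 0.20, adjusted p = 0.031). Between the genotypes limma called none of the 24 (2 at an unadjusted p under 0.05, 0 by edgeR and 1 by DESeq2). Of 18 listed noncoding transcripts of the clusters 7 were in the tables and 1 passed the filter in the time course, Mir196a-1, which lies between Hoxb13 and Hoxb9. Its mature product miR-196a-5p is shown with the seed, bases 2 to 8, in capitals, since miR-196 is a textbook repressor of Hox transcripts.
miR-196a-5p: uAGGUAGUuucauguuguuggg
RefSeq places it at chr11:96265187-96265208 on the plus strand of GRCm38.p6. Reads at this gene had normalised counts of 7.68 and 10.7 at day 0, 16.4 and 6.39 at day 1, 1.96 and 0.889 at day 2, 1.91 and 0 at day 3, and 0 and 0 at day 4, and fell between day 4 and day 0 (adjusted p = 0.0062). The libraries were of long RNA, so these reads measure RNA across the hairpin locus and not the mature miRNA.

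Of the chromatin regulators of the clusters, 1 of 14 Polycomb genes rose and 4 fell between day 4 and day 0, a share near the 36% of all tested genes, with a median log2 fold change of -0.18. Cbx2, a subunit of Polycomb repressive complex 1, rose (1.71 ± 0.24, adjusted p = 0.00069). Cbx7, the Cbx subunit typical of ES cells, fell (-1.39 ± 0.15, adjusted p = 0.00015), as did Eed (-1.57 ± 0.19, adjusted p = 0.00026) and Suz12 (-0.87 ± 0.17, adjusted p = 0.0036), core subunits of complex 2. Of 8 tested trithorax and demethylase genes 2 rose and 3 fell, among them Kdm6b, a demethylase of H3K27 (1.36 ± 0.21, adjusted p = 0.00095), and Ash2l (-1.14 ± 0.18, adjusted p = 0.0012), Wdr5 (-1.10 ± 0.22, adjusted p = 0.0049) and Rbbp5 (-0.73 ± 0.16, adjusted p = 0.0073), shared subunits of the trithorax methyltransferases. Kdm6b was higher and the 3 shared subunits were lower at day 4. Between the genotypes limma called none of the 14 Polycomb genes (3 at an unadjusted p under 0.05, 0 by edgeR and 1 by DESeq2) and none of the 8 others (0, 0 and 0).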

How the data were processed

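RNA was measured in 14 libraries. Per the labels' protocols, RNA with an integrity number over 9.5 was made into TruSeq RNA v2 libraries and sequenced with paired ends. The submitters' processing notes list HTSeq 0.5.4, SAMtools 0.1.19, Bowtie2, DESeq2, FastQC 0.11.3 and the build mm9, without roles or order. The deposited signal is a read count that the authors divided by 1 factor per library, called the normalised read count here. Tested on the files, 100% of values gave whole reads within 1e-06. The 2 tables were fitted separately. The ChIP-seq samples were not analysed here.

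Tests were run in R 4.3.3 by limma 3.58.1 with its trend option on log2(signal + 1), after edgeR's filterByExpr on the recovered reads, with Benjamini-Hochberg adjustment over 15841 genes (time course) or 14840 (genotypes) and a threshold of 0.05. Time course fits had 5 residual degrees of freedom and the genotype fit 2. The procedure was tested on simulated data. Alternatives were edgeR 4.0.16 with TMM, DESeq2 1.42.0, a pseudocount of 5, no filter, TMM scaling, a replicate block, each library left out, and read minimums of 5 and 20 in place of 10. Intervals are exact 95% ones and cover counting error only, as reads without molecular identifiers are not independent molecules. All members may be named, with every library for those called or reaching 100 reads in the time course, and up to 4 genes per list by smallest p. Pknox1, Hand1 and the genes of the target check were named outside that rule. Some genes that enter the counts and sums are not reported here. The members and lists were chosen with earlier results of these data known.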

Additional observations from a re-analysis of the deposited data

How the results depend on the processing

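Counts of called members are given in the order of the comparisons of day 4 with day 0 (15), day 1 with day 0 (5), day 2 with day 1 (0), day 3 with day 2 (0), day 4 with day 3 (10), any change (19) and the genotypes (0). DESeq2 moved 4 of them by over 1.5 times or off 0, to 8 for day 1 over day 0, 1 for day 2 over day 1, 3 for day 3 over day 2 and 2 for the genotypes, and gave 16, 9 and 22 for day 4 over day 0, day 4 over day 3 and any change. For those 4 comparisons DESeq2 called 1450, 1290 and 315 of 15841 genes and 664 of 14840, against 523, 94, 21 and 184 by limma. For day 4 over day 0, day 4 over day 3 and any change it called 6280, 1026 and 7877 of 15841 genes. The calls by limma there were 5698, 464 and 6159. Fitting without the filter gave 1 for day 3 over day 2. With 1 library left out the counts moved in at least 1 fit, except for day 2 over day 1 and day 3 over day 2. The calls over all genes moved in these fits too, and in most of them so did the number of members tested. There a lone library is assumed to vary like the other groups. Counts over the other gene lists were recomputed with edgeR and DESeq2 only. The causes were not tested, but a fit without 1 library also has fewer samples.

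Nothing in the labels says that the replicate numbers pair the samples. The deviations of same-numbered libraries correlated at -0.19 to 0.351 between days, and at 0.572 between the genotypes, where 2 pairs are too few to show pairing. With a replicate block the counts were 16, 5, 0, 0, 8, 18 and 4, the last with Cdx1, Cdx2 and Hoxb1 between the genotypes, where the block raised the calls over all genes to 2973 of 14840, against 184 without it. Under the block the adjusted p was 0.00019 for Cdx1 and 0.00046 for Hoxb1.

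Signs turned only with 1 library left out, for 9 log2 fold changes reported here, none of which had passed the test. Their ranges over the left-out libraries were -2.98 to 0.171 for Hoxb9 and -1.01 to 0.0423 for Cdx2 (day 1 over day 0, highest without day 0 replicate 1), and -0.0428 to 0.532 for Cdx1 (day 4 over day 0, lowest without day 4 replicate 2). They were -0.0246 to 0.349 for Hoxd1 from day 2 to day 3 (lowest without day 2 replicate 2) and -0.0178 to 0.915 for Hoxd1 from day 3 to day 4 (lowest without day 4 replicate 2). Between the genotypes they were -1.01 to 0.180 for Hoxb2 and -3.06 to 1.05 for Hoxd9 (highest without p53 family loss replicate 2), -1.17 to 0.396 for Hoxd13 (highest without Trp53+/+ replicate 2), and -0.322 to 0.736 for Hoxb3 (lowest without p53 family loss replicate 1, and -0.166 without Trp53+/+ replicate 2).

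At over 5 reads, 12 members were detected in both day 0 libraries (7 at over 10), 10 in both libraries with p53 family loss (8) and 11 in both Trp53+/+ libraries (6). At over 20 reads there were 11 at day 1 (17), 13 at day 4 (21) and 5 with p53 family loss (8). Depth limits the genes with under about 10 reads, where 1 read is a large part of the value.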
